A study of Oryctolagus cuniculus with 8 samples.

Results

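Iron handling genes of the rabbit retina are described here: transferrin (TF) and transferrin receptor (TFRC), the iron transporters SLC11A2 and SLC40A1, the ferroxidases CP and HEPH, the ferritin heavy chain FTH1, heme oxygenase HMOX1 and the iron sensor IREB2. These 9 genes were taken by symbol, and 8 of them were found among the 25666 genes of the table, of which 19293 are protein-coding. FTH1 was not analysed here, as its symbol was absent from the gene names given. The group was chosen by its function and by the values of TF, which is among the most abundant transcripts of these retinas and was lower in the sucrose diets. The abundance of TF and its differences in the sucrose comparisons are therefore given as a description, without a test.

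RNA from the dissected retinas of male, wild-type Chinchilla rabbits was sequenced after 6 months on 1 of 4 diets, when the animals were about 10 months old, and each diet had 2 retinas. The study asked how these diets bear on retinal changes like those of macular degeneration. The normal diet (ND) was standard chow. The high-fat diet (HFD) was that chow with 10% lard and 0.5% cholesterol, the high-sucrose diet (HSD) was that chow with 40% sucrose, and the combined diet (HFSD) had 35% sucrose beside lard and cholesterol at the levels of the HFD. Sucrose was thus added at 40% in one diet and at 35% in the other, and the fat diets differ from chow in both lard and cholesterol. The labels do not say whether the 2 retinas of a diet came from separate animals, so p-values measure only the spread between these samples.

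Iron circulates in the blood and in the extracellular space as ferric iron bound to transferrin, and cells take up the complex through the transferrin receptor. In the acidic endosome the iron is reduced and leaves through a divalent metal transporter, is stored in ferritin or built into heme and iron-sulfur clusters, and can leave the cell through ferroportin with the help of a copper-containing ferroxidase. The retina lies behind a blood barrier and makes transferrin and ceruloplasmin itself, and iron builds up in retinas that lack ceruloplasmin and hephaestin.

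The libraries held 15223427 to 22293447 fragments summed over genes, and 1 fragment on a transcript of 1 kilobase was worth 0.0439 to 0.0634 FPKM (fragments scaled to transcript length and library depth, the deposited unit). The samples carried the RNA of retina: SAG, the arrestin of rod photoreceptors, stood at 2826 to 3820.3 FPKM. Genes were tested where at least 2 libraries reached 1 FPKM, which held for 12204 genes and for 7 of the 8 iron genes. HEPH stayed below that limit. In HSD replicate 2 the summed level of 8 skeletal muscle markers was 506 FPKM, against 1.73 to 5.39 FPKM in the other 7 libraries, and the sucrose differences are also given without that library.

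The iron genes spanned a wide range of levels per transcript length. By the median over the 8 retinas, TF came first at 865 FPKM and TFRC next at 49.98 FPKM, followed by IREB2 at 22.5, CP at 21.6 and SLC11A2 at 20.7 FPKM. SLC40A1 at 2.60, HMOX1 at 1.18 and HEPH at 0.732 FPKM were the lowest. TF exceeded TFRC, and TFRC exceeded IREB2, in 8 of 8 libraries. IREB2, CP and SLC11A2 were not separated, with IREB2 above CP in 5 of 8 libraries and CP above SLC11A2 in 4 of 8. SLC11A2 exceeded SLC40A1, SLC40A1 exceeded HMOX1 and HMOX1 exceeded HEPH in 8 of 8 libraries, although the ranges of SLC40A1 and HMOX1, and of HMOX1 and HEPH, overlapped when all diets were pooled. From the lowest to the highest library, IREB2 varied by a factor of 1.17 and SLC11A2 by 1.36, whereas TF varied by 2.90, CP by 3.14 and HMOX1 by 3.17.

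**Figure D1:**
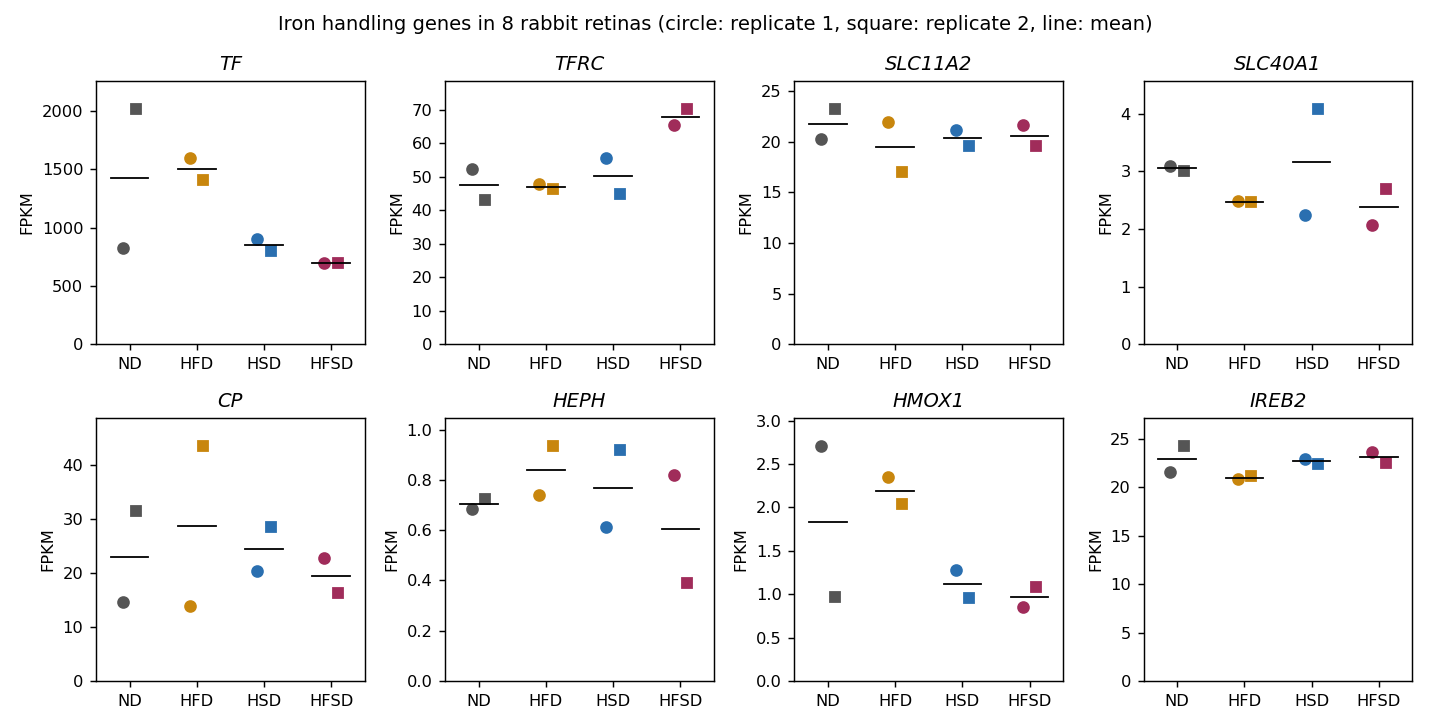
FPKM of the 8 iron genes (vertical axes from 0) in each retina by diet; circles are replicate 1, squares replicate 2 and lines the mean of 2. TF in the HSD and HFSD retinas lay between 695 and 902 FPKM, and TFRC in both HFSD retinas lay above all others, at 65.5 and 70.2 FPKM.

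TF, the carrier of ferric iron, was expressed at 828 and 2014 FPKM in the ND retinas, at 1592 and 1403 FPKM in the HFD retinas, at 902 and 802 FPKM in the HSD retinas and at 698 and 695 FPKM in the HFSD retinas. These levels rested on 34360 to 111737 fragments a library, so counting error was small beside the spread between retinas. They placed TF at ranks 23 to 73 among the protein-coding genes. The HFD retinas were both high and the HFSD retinas both low, while the 2 ND retinas differed by a factor of 2.43, with ND replicate 2 the highest of all and ND replicate 1 between the 2 HSD retinas.

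Over the 4 sucrose retinas TF averaged 774±98.8 FPKM (mean±s.d., n=4), against 1459±492 FPKM (n=4) without sucrose, a ratio of 0.531. In 3 of the 4 sucrose retinas TF lay below every retina without sucrose, and the groups overlapped through HSD replicate 1 at 902 FPKM and ND replicate 1 at 828 FPKM. On the log2(FPKM + 1) scale, the mean difference was -0.60 for HSD and -0.89 for HFSD against ND, and -0.85 for the sucrose diets together. All of these were part of how TF was selected and carry no test. They also turn on the ND group: without ND replicate 2 the HSD difference was 0.038 and the HFSD difference -0.25, and without ND replicate 1 they were -1.24 and -1.53. The difference of the sucrose diets together was -0.53 without ND replicate 2 and -1.17 without ND replicate 1. In bulk tissue, fewer cells that express TF and less TF RNA per cell cannot be told apart.

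The fat comparisons did not enter the choice of TF and were tested, although HFD against ND shares the ND retinas with the comparisons that did. TF in the HFD group averaged 1497±133 FPKM (n=2) against 1421±838 FPKM (n=2) in the ND group, a log2 difference of 0.21±0.37 (SE), with a 95% interval from -0.65 to 1.07 (adjusted p = 0.998 by limma with Benjamini-Hochberg adjustment). The fat diets together averaged 1097±469 FPKM (n=4) and the diets without fat 1137±586 FPKM (n=4). That difference was -0.039±0.26 on the log2 scale, with an interval from -0.65 to 0.57 (adjusted p = 0.9996 by limma with Benjamini-Hochberg adjustment). Intervals of this width hold changes of TF in either direction. The interaction, which asks whether fat acted differently with sucrose than without it, is built from the sucrose differences that selected TF. Its value of -0.50 is therefore a description too.

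Marker lists of glia and of the pigment epithelium also differed between diets, and their values are given beside TF. Summed over 7 of 8 Müller glia markers found in the table, the level was 2403 to 2521 FPKM in the sucrose retinas and 3343 to 4537 FPKM in those without, and 6 of these 7 genes were lower with sucrose (3 of the 7 at an unadjusted p under 0.05, a limit that 9.16% of all genes tested passed as lower and 9.17% as higher). The sides stayed apart without GLUL, the most abundant of them, at 1550 to 1766 FPKM and 1854 to 2410 FPKM. CLU was also separated, at 488 to 583 FPKM with sucrose and 734 to 825 FPKM without. SLC1A3, AQP4, KCNJ10 and VIM overlapped. For 11 of 12 pigment epithelium markers the sums were 122 to 178 FPKM with sucrose and 247 to 564 FPKM without, and 9 of the 10 tested genes were lower (9 of 10 at an unadjusted p under 0.05). LRAT, among those tested, reached 1 FPKM in the ND retinas only, and without it 8 of 9 were lower and 8 passed that p. RLBP1, which Müller glia also express and which is on both lists, carried the gap between these sums. It stood at 92.6 to 131 FPKM with sucrose and 149.8 to 305 FPKM without, whereas the other pigment epithelium markers summed to 29.2 to 75.6 FPKM and 60.4 to 338 FPKM, which overlap. Unlike TF, this list was low in the HFD retinas too: without RLBP1 it summed to 92.7 and 60.4 FPKM there, against 338 and 258 FPKM in ND, and without LRAT 8 of 9 genes were lower with fat (median -0.94, 3 at an unadjusted p under 0.05, against 3.2% of all genes tested in either direction). The sums without GLUL or RLBP1 were added after the values were seen. The defining gene RPE65 ranged from 10.1 FPKM in HFD replicate 2 to 119 FPKM in ND replicate 1. None of these genes was called after adjustment by limma with Benjamini-Hochberg adjustment, and no marker of either list was at 0 in all libraries.

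Myelin markers were a separate case, since the rabbit retina carries bundles of myelinated fibres and oligodendrocytes make transferrin. The summed level of 14 of 16 myelin markers was 51.9 to 169 FPKM in the sucrose retinas and 105 to 773 FPKM in those without, and 14 of 14 genes were lower with sucrose (11 at an unadjusted p under 0.05, 0 called after limma with Benjamini-Hochberg adjustment). Of these, 7 met the limit on low values only through the diets without sucrose, where they were high, and so had to be lower. The other 7 were also lower, 6 of them at that unadjusted p. Within the ND group the order was opposite to that of TF. ND replicate 1 had the lower TF and the highest myelin sum of all libraries, 773 FPKM, with MBP at 252 FPKM. ND replicate 2 had the highest TF of all and a myelin sum of 105 FPKM, with MBP at 6.55 FPKM. The Müller sum was higher in ND replicate 2, as TF was. The part that any of these cell types had in the level of TF was not tested.

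**Figure D2:**
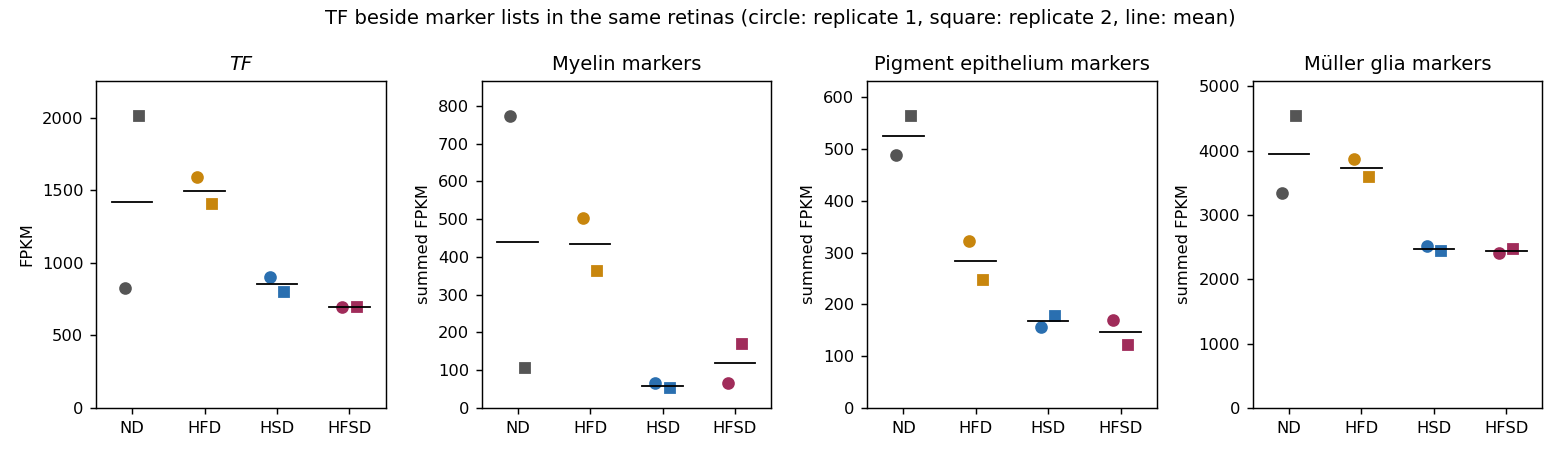
TF in FPKM and the summed FPKM of myelin, pigment epithelium and Müller glia markers (vertical axes from 0) in each retina by diet; circles are replicate 1, squares replicate 2 and lines the mean of 2. The 2 ND retinas stood in opposite order in TF (828 and 2014) and in myelin markers (773 and 105).

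The other marker lists also had lower sums with sucrose in part. Endothelial markers (11 of 12 in the table) summed to 299 to 360 FPKM with sucrose and 382 to 467 FPKM without, a gap made by the glucose transporter SLC2A1 alone: without it, a choice made after the values were seen, the sums overlapped at 129 to 167 FPKM and 136 to 167 FPKM. Microglia and macrophage markers (12 of 12) summed to 10.6 to 15.2 FPKM and 15.2 to 27.7 FPKM. Astrocyte markers (5 of 5) summed to 240 to 479 FPKM and 385 to 1128 FPKM. Red blood cell markers, whose ALAS2 and other genes would mark blood left in the vessels, summed to less than 2 FPKM in every library, from 0.563 to 1.97 FPKM.

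The genes whose level followed TF most closely over the 8 retinas were found by Pearson correlation of log2(FPKM + 1) among 9876 protein-coding genes with a symbol. They were CTDP1 (r = 0.982, Spearman's rho = 0.976), EIF2D (r = 0.979, rho = 0.929), ESPN (r = 0.972, rho = 0.881), SMOC1 (r = 0.970, rho = 0.786) and ACOT11 (r = 0.969, rho = 0.881). The 8 points are 4 diets of 2 libraries, so these values describe likeness and were not tested. Their folds were smaller than that of TF: CTDP1, a phosphatase of RNA polymerase, spanned only 15.8 to 19.8 FPKM, and ESPN, an actin-bundling protein, 182 to 332 FPKM. RLBP1, the retinaldehyde-binding protein of Müller glia and pigment epithelium, came at rank 21 with r = 0.946. MBP, of myelin, had r = 0.203. Among the pigment epithelium markers compared, MITF alone had a negative r, at -0.793. Besides RLBP1, the others were KCNJ13 at 0.793, PMEL at 0.632, TYRP1 at 0.454, TTR at 0.454 and RDH5 at 0.410. RPE65 stood at 0.284, LRAT at 0.210 and DCT at 0.0863. Of the iron genes, CP had the highest Pearson's r with TF (0.342) but a rho of only 0.190, below those of SLC11A2 (0.452) and HMOX1 (0.381), so none followed TF closely. TFRC was far down the list at rank 8807 (r = -0.746, rho = -0.714).

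TFRC, the receptor through which cells take in transferrin, stood at 52.3 and 43.0 FPKM in the ND retinas, at 47.7 and 46.4 FPKM in the HFD retinas, at 55.7 and 45.0 FPKM in the HSD retinas and at 65.5 and 70.2 FPKM in the HFSD retinas. Both HFSD retinas were higher than all 6 others, and the other 3 diets overlapped. The HFSD mean of 67.8±3.26 FPKM (n=2) exceeded the ND mean of 47.6±6.55 FPKM (n=2) by 0.51±0.14 on the log2 scale, with a 95% interval from 0.17 to 0.84. The unadjusted p was 0.00871, and the difference did not pass the correction over 12204 genes (adjusted p = 0.457 by limma with Benjamini-Hochberg adjustment, and 0.224 to 0.999 over 15 alternative settings).

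For the sucrose diets together TFRC averaged 59.1±11.2 FPKM (n=4) against 47.3±3.84 FPKM (n=4), a difference of 0.30±0.10 on the log2 scale. In 3 of the 4 sucrose retinas it lay above every retina without sucrose, and the exception was HSD replicate 2 at 45.0 FPKM. The interval ran from 0.061 to 0.54, and the adjusted p was 0.202 by limma with Benjamini-Hochberg adjustment (unadjusted p = 0.0205). Neither HFD, at -0.011±0.14, nor HSD, at 0.077±0.14, alone was far from ND. The interaction term was 0.44±0.20 with an interval from -0.033 to 0.92 (unadjusted p = 0.0640, adjusted p = 0.999 by limma with Benjamini-Hochberg adjustment), and was 0.29 without HSD replicate 2. The fat difference was 0.21±0.10 with an interval from -0.028 to 0.45.

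Set side by side within each library, TF exceeded TFRC by a factor of 15.9 and 46.8 in the ND retinas, 33.4 and 30.3 in the HFD retinas, 16.2 and 17.8 in the HSD retinas and 10.6 and 9.91 in the HFSD retinas. The HFSD retinas had the lowest ratios and ND replicate 2 the highest. The ratio holds the TF values that selected the gene and was not tested.

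SLC11A2, the divalent metal transporter that moves ferrous iron out of the endosome, varied little. It stood at 20.3 and 23.2 FPKM in the ND retinas, at 22.0 and 17.0 in the HFD retinas, at 21.2 and 19.6 in the HSD retinas and at 21.6 and 19.6 in the HFSD retinas. All diets overlapped. The sucrose difference was -0.0031±0.11 on the log2 scale with a 95% interval from -0.25 to 0.24, and the fat difference -0.071±0.11 with an interval from -0.32 to 0.17.

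SLC40A1, or ferroportin, the known exporter of iron from cells, was low. Its level was 3.09 and 3.01 FPKM in the ND retinas, 2.49 and 2.47 in the HFD retinas, 2.24 and 4.08 in the HSD retinas and 2.07 and 2.70 in the HFSD retinas, from 135 to 269 fragments a library. The HFD and HFSD retinas all lay below both ND retinas, and the HSD retinas lay on either side. The fat difference was -0.24±0.17 on the log2 scale with an interval from -0.63 to 0.14 (unadjusted p = 0.182, adjusted p = 0.9996 by limma with Benjamini-Hochberg adjustment). It rested in part on the HSD retinas, being -0.082 without HSD replicate 2 and -0.41 without HSD replicate 1. The sucrose difference was -0.022±0.17 with an interval from -0.41 to 0.37.

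CP, ceruloplasmin, oxidises ferrous iron as it leaves the cell. It stood at 14.6 and 31.5 FPKM in the ND retinas, at 13.9 and 43.6 in the HFD retinas, 20.5 and 28.6 in the HSD retinas and 22.7 and 16.3 in the HFSD retinas. The 2 retinas of the HFD group differed by a factor of 3.14 and those of the ND group by 2.16, more than any diet differed from another on average. The sucrose difference of -0.092±0.38 on the log2 scale had an interval from -0.97 to 0.79, so that a change of CP within these bounds was not detectable with these samples. Counting error was small beside this spread, since 946 to 2920 fragments lay behind each value.

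HEPH, hephaestin, is the membrane-bound ferroxidase. Its level was 0.683 and 0.725 FPKM in the ND retinas, 0.740 and 0.935 in the HFD retinas, 0.613 and 0.917 in the HSD retinas and 0.818 and 0.390 in the HFSD retinas, from 35 to 106 fragments. It never reached 1 FPKM. In a fit without the limit on low values the sucrose difference was -0.080±0.11 and the fat difference -0.020±0.11 on the log2(FPKM + 1) scale, which understates the change of a gene at this level.

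HMOX1, the inducible heme oxygenase that frees iron from heme, was low and uneven. It stood at 2.71 and 0.963 FPKM in the ND retinas, at 2.35 and 2.04 in the HFD retinas, at 1.27 and 0.953 in the HSD retinas and at 0.855 and 1.08 in the HFSD retinas, from 27 to 87 fragments. Of the retinas without sucrose, 3 of 4 lay above every sucrose retina, and ND replicate 2 lay among the latter. The sucrose diets averaged 1.04±0.181 FPKM (n=4) and the others 2.01±0.753 FPKM (n=4), a log2 difference of -0.53±0.22 with a 95% interval from -1.03 to -0.024. The unadjusted p was 0.0422 and the difference did not pass the correction (adjusted p = 0.256 by limma with Benjamini-Hochberg adjustment, and 0.112 to 0.471 over 15 alternative settings). Without ND replicate 2 it was -0.76 and without ND replicate 1 -0.30. Adding 1 FPKM understates the change of a gene at this level, and the difference was -0.81 with 0.1 FPKM added and -0.89 by voom. Microglia and macrophages, which express HMOX1, had lower marker sums in the sucrose retinas as given above, and their part in the HMOX1 level was not tested. The fat difference was 0.070±0.22.

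IREB2 encodes iron regulatory protein 2, which binds iron-responsive elements of messenger RNAs such as those of TFRC and the ferritins when iron is scarce. It was the steadiest of the iron genes, at 21.6 and 24.3 FPKM in the ND retinas, at 20.8 and 21.2 in the HFD retinas, 23.0 and 22.4 in the HSD retinas and 23.7 and 22.5 in the HFSD retinas. Both HFD retinas lay just below both ND retinas, with a log2 difference of -0.12±0.11 and an interval from -0.37 to 0.13, or -0.038 without ND replicate 2 and -0.20 without ND replicate 1. The sucrose difference was 0.059±0.076 with an interval from -0.12 to 0.24. The protein is controlled mainly by its breakdown, which transcript levels do not show.

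**Figure D3:**
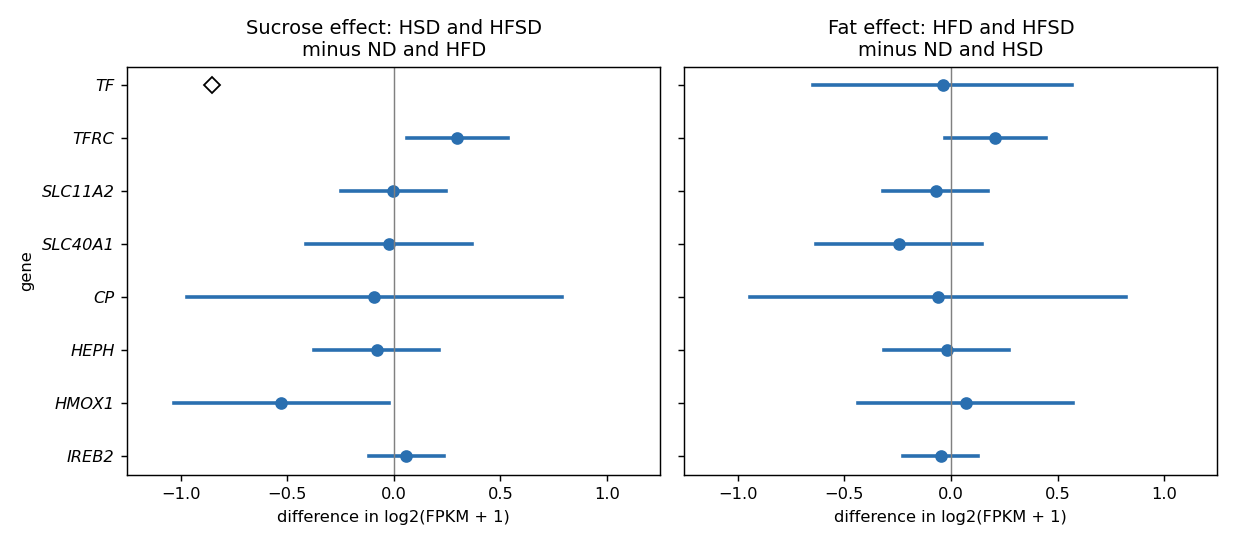
Difference in log2(FPKM + 1) of each iron gene (horizontal axes) for sucrose (HSD and HFSD minus ND and HFD, left) and fat (HFD and HFSD minus ND and HSD, right); points are estimates and bars 95% intervals. TFRC at 0.30 and HMOX1 at -0.53 have sucrose intervals that leave out 0, no fat interval does, and the open diamond marks TF at -0.85, which was not tested; HEPH comes from a fit without the limit on low values.

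Counted over the group, no iron gene was called in any of 6 comparisons at an adjusted p under 0.05 by limma with Benjamini-Hochberg adjustment, nor by voom on the recovered fragments. The tests covered 7 genes for HFD and for fat, and 6 for the interaction and the comparisons with sucrose, where TF was left out. Calls were rare among all 12204 genes as well: 0.00819% for HFD, 0.0574% for HSD and 0.0164% for HFSD against ND, 0.344% for sucrose, 0.00819% for fat and 0.00819% for the interaction. At an unadjusted p under 0.05, TFRC was higher in HFSD, TFRC was higher and HMOX1 lower with sucrose, and 0 iron genes passed in HFD, HSD, fat or the interaction. Among all genes tested 8.07% passed in HFSD, 4.31% in HFD, 7.2% in HSD, 3.2% for fat and 3.74% for the interaction, beside the shares for sucrose given above. For sucrose, 1 of 6 iron genes in each direction is near those shares. The comparisons with ND share the same 2 ND retinas. Without HSD replicate 2, the library with muscle RNA, the sucrose difference was -0.81 for TF, 0.37 for TFRC (unadjusted p = 0.0111, adjusted p = 0.290 by limma with Benjamini-Hochberg adjustment), -0.47 for HMOX1 (unadjusted p = 0.107) and -0.18 for SLC40A1.

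A plainer count is that of genes whose 2 retinas both lay above, or both below, the 2 ND retinas. Of the 7 iron genes tested, 0 lay higher in HFD (against 12.5% of all genes tested) and IREB2 and SLC40A1 lay lower (2 of 7, against 13.3%). TF is left out of the counts with sucrose, whose values selected it. In HFSD, TFRC lay higher (1 of 6, against 21.6%) and SLC40A1 lower (1 of 6, against 20.6%). In HSD 0 of 6 lay higher or lower, against 19.3% and 19.7% of all genes. Over 4 retinas against 4, 0 of 6 were separated by sucrose, against 6.39% higher and 6.48% lower, and 0 of 7 by fat, against 0.68% and 0.664%. HEPH, below the limit on low values, lay higher in HFD and was not separated in the other comparisons.

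The study selected genes by the ratio of FPKM in a diet to FPKM in the control, with 1 added to each, without a test. How the 2 retinas of a diet were joined is not given in the sources used here, and the ratio was taken here between group means. By those limits 0 of 8 iron genes passed in HFD (1.76% of all protein-coding genes did), and TF alone passed in HSD with a ratio of 0.600 (3.95% of all) and in HFSD with 0.490 (3.43% of all). Since TF was selected on this difference, nothing is read from its passing. Without ND replicate 2 the TF ratios became 1.03 in HSD and 0.841 in HFSD, inside the limits, and 1.81 in HFD, above them. Without ND replicate 1 they were 0.423, 0.346 and 0.744. TFRC in HFSD had a ratio of 1.42, below the upper limit, and passed it at 1.57 only when ND replicate 1 was left out.

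The genes around these were read from 8 lists of iron and heme handling with 87 genes, of which 71 were in the table and 57 were tested. No gene of the lists was called in any comparison by limma with Benjamini-Hochberg adjustment, nor by voom. Without TF, 43 of 56 genes had a lower mean with sucrose and 13 a higher one, with a median log2 difference of -0.12, against -0.0073 over all genes tested. Leaving out 1 library gave 40 to 45 lower genes and medians of -0.17 to -0.093, with 40 genes and -0.13 without HSD replicate 2. At an unadjusted p under 0.05, 11 were lower and 2 higher, the latter TFRC and HPX, the heme-binding hemopexin. The shares of all genes tested at that limit were given above. In 6 of 56 genes (CUBN, CYBRD1, HFE, HMOX2, IBA57 and NFE2L2) all 4 sucrose retinas lay below the others, and in 0 they lay above, against 6.48% and 6.39% of all genes tested. Of the 56, HFE alone passed the limit on low values only through the diets without sucrose, and without it 42 of 55 genes were lower, 10 at that unadjusted p, and 5 were separated. Against ND, 41 of 56 genes were lower in HSD (median -0.089) and 41 of 56 in HFSD (median -0.084), whereas 35 of 57 were higher in HFD (median 0.083) and 35 of 57 with fat (median 0.028). Single libraries moved these counts: without ND replicate 2, 33 of 56 were lower in HSD (median -0.038) and 29 of 56 in HFSD (median -0.016). Without ND replicate 1 these medians were -0.12 and -0.15. With fat, 37 of 57 were higher without ND replicate 2 (median 0.052). Without HFD replicate 1, 29 of 57 were higher in HFD (median 0.0017), and without ND replicate 1, 30 of 57 with fat (median 0.0078). The median of all genes tested lay within 0.0073 of 0 in each of these comparisons. The lists were made with results of these samples known, and their genes are not independent of each other.

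**Figure D4:**
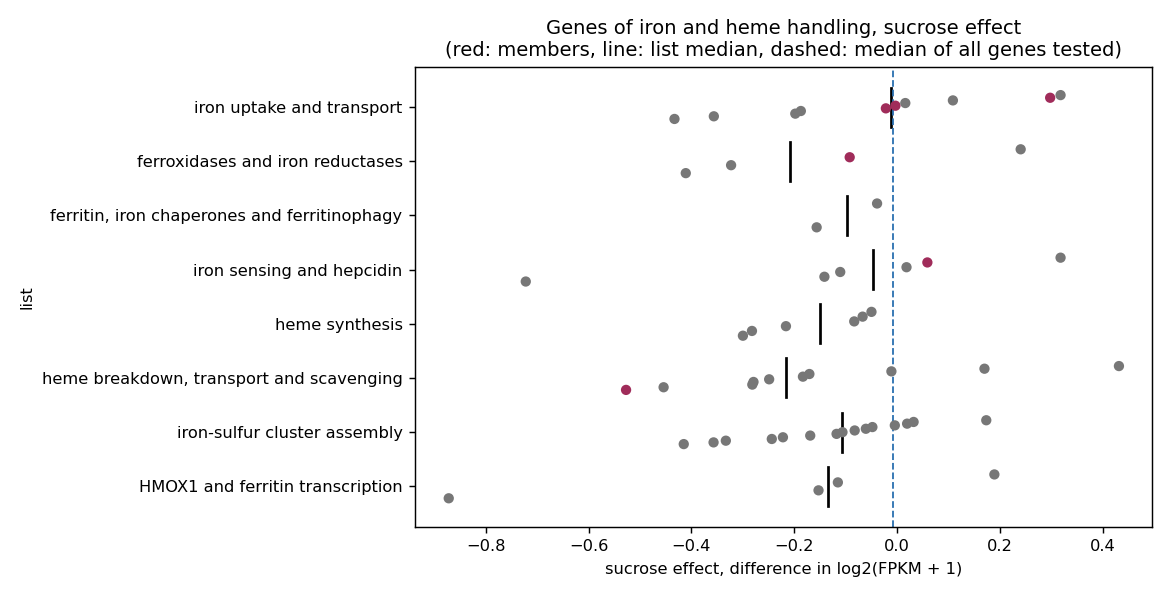
Sucrose difference in log2(FPKM + 1) (horizontal axis) of each tested gene in 8 lists of iron and heme handling (vertical axis); red points are genes of the group described here without TF, black lines list medians and the dashed line the median of all genes tested. Of 56 genes, 43 lie below 0, and HFE at -0.72 and MAFF at -0.87 are farthest to the left on this scale, in an order that the amount added to low values decides.

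Among genes of uptake and reduction, CYBRD1, a ferric reductase, was measured at 31.0 and 37.1 FPKM in ND, at 26.3 and 26.2 FPKM in HFD, at 23.6 and 23.9 FPKM in HSD and at 24.2 and 22.9 FPKM in HFSD. Its sucrose difference was -0.32±0.082 (unadjusted p = 0.00517, adjusted p = 0.138 by limma with Benjamini-Hochberg adjustment). It was below ND in the diet without sucrose too, by -0.36 in HFD, beside -0.50 in HSD and -0.51 in HFSD. The fat difference was -0.19. CUBN, the cubilin receptor that takes up transferrin in some epithelia, was at 5.40 to 6.91 FPKM without sucrose and 2.79 to 5.32 FPKM with it, a difference of -0.43±0.17 (adjusted p = 0.244 by limma with Benjamini-Hochberg adjustment), or -0.25 without HFSD replicate 2. FRRS1, another reductase, differed by -0.41±0.20 (unadjusted p = 0.0805), or by -0.20 without HFSD replicate 2 and -0.62 without HFSD replicate 1. In both CYBRD1 and CUBN every sucrose retina lay below every retina without sucrose, and neither gene passed the correction.

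Ferritin was represented by its light chain. FTL stood at 941 and 794 FPKM in the ND retinas, at 1012 and 840 in the HFD retinas, 1026 and 688 in the HSD retinas and 998 and 810 in the HFSD retinas, so that it was of the same order as TF. All diets overlapped, and the sucrose difference was -0.039±0.17, or 0.10 without HSD replicate 2. The lowest and the highest value belonged to the same diet, HSD. PCBP1, the chaperone that hands iron to ferritin, ranged from 239 to 321 FPKM with a sucrose difference of -0.16±0.098. NCOA4, the receptor for ferritin breakdown, was not analysed here for the same reason as FTH1, and FTMT, the mitochondrial ferritin, was listed at 0 in every library.

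The closest partners of IREB2 overlapped between the diets with and without sucrose. FBXL5, the ubiquitin ligase subunit that marks iron regulatory proteins for breakdown when iron is ample, ranged from 75.5 to 94.5 FPKM with a sucrose difference of 0.018±0.10. ACO1, which encodes the other iron regulatory protein, ranged from 7.74 to 12.3 FPKM with a difference of -0.14±0.12. HFE, which binds the transferrin receptor, was the exception in its list. Its level was 1.43 and 2.15 FPKM in ND, 1.51 and 1.42 FPKM in HFD, 0.503 and 0.521 FPKM in HSD and 0.418 and 0.939 FPKM in HFSD. All 4 sucrose retinas lay below 1 FPKM and all 4 others above it, so HFE entered the test only through the side on which it was high, and its difference of -0.72±0.17 is given as a description. That difference was -1.35 with 0.1 FPKM added in place of 1 and -1.51 by voom.

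In heme synthesis 6 of 6 tested genes had a lower mean with sucrose (median -0.15). ALAD, an early enzyme of the pathway, ranged from 27.0 to 44.9 FPKM without sucrose and from 24.4 to 30.9 FPKM with it, a difference of -0.30±0.13 (unadjusted p = 0.0506). In heme breakdown, transport and scavenging 8 of 10 were lower (median -0.22). HMOX2, the constitutive heme oxygenase, was far more abundant than HMOX1, at 55.0 to 63.8 FPKM without sucrose and 49.4 to 55.0 FPKM with it, a difference of -0.17±0.075 (unadjusted p = 0.0542). The 2 sides of HMOX2 met at 55.0 FPKM. PGRMC1, a heme-binding membrane protein, differed by -0.25±0.091 (unadjusted p = 0.0276, adjusted p = 0.219 by limma with Benjamini-Hochberg adjustment).

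Genes of iron-sulfur cluster assembly were lower with sucrose in 12 of 15 (median -0.11) and higher in HFD in 13 of 15 (median 0.13). Against ND, 9 of 15 were lower in HSD (median -0.054) and 10 of 15 in HFSD (median -0.060). Without ND replicate 2 these 2 medians were 0.011 and 0.025. Without HFD replicate 1, 10 of 15 were lower with sucrose (median -0.061) and 9 of 15 higher in HFD (median 0.038), and without ND replicate 2 the sucrose median was -0.055. Without HFD replicate 2, 13 of 15 were lower with sucrose (median -0.18) and 14 of 15 higher in HFD (median 0.25). The interaction of fat and sucrose was below 0 in 15 of 15 of them (median -0.21, against 0.011 over all genes tested), 2 of them at an unadjusted p under 0.05 and 0 called by limma with Benjamini-Hochberg adjustment. Without HFD replicate 1 it was below 0 in 10 of 15, with a median of -0.071. The HFD retinas enter the HFD, sucrose and interaction counts alike, so these counts are not separate results. GLRX5, a mitochondrial glutaredoxin of this pathway, stood at 122 and 84.5 FPKM in the ND retinas, at 223 and 172 in the HFD retinas, 145 and 52.9 in the HSD retinas and 153 and 105 in the HFSD retinas. The HFD retinas were the highest and the HSD retinas the farthest apart, and the sucrose difference was -0.41±0.31, or -0.054 without HSD replicate 2. ISCA1, the most abundant gene of the list, differed by 0.032±0.10.

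The list of genes that control transcription of HMOX1 and the ferritins had 4 tested genes, of which 3 were lower with sucrose (median -0.13). MAFF, a small partner of the stress-response factor NFE2L2, was at 7.81 FPKM in HFD replicate 2 and 0.545 to 3.23 FPKM in the other 7 libraries, with a sucrose difference of -0.87±0.39 (unadjusted p = 0.0591). HFD replicate 2 carried part of it, since the difference was -0.44 without that library and -1.30 without HFD replicate 1. With 0.1 FPKM added it was -1.26, less than that of HFE. KEAP1, which holds that factor in check, ranged from 55.6 to 77.0 FPKM with a difference of -0.15±0.089. Neither gene passed the test.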

How the data were processed

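Per the labels and the methods, the authors checked reads with FastQC, trimmed them, mapped them with TopHat2 (reads mapping to several places were discarded) and computed FPKM per gene with an R script. The genome build is not given in the sources used here, so no coordinates or sequences are printed. The deposited table is named for raw counts but holds FPKM, 1 column per library (0 columns without a sample). Because FPKM are not counts, limma 3.58.1 in R 4.3.3 was fitted to log2(FPKM + 1) of all 8 libraries in 1 model of 4 groups, with a mean-variance trend, over genes at 1 FPKM or more in at least 2 libraries, and p-values were adjusted by Benjamini-Hochberg over all 12204. Sucrose, fat and interaction are contrasts of that model. From the steps between low FPKM values, fragments were recovered for 20060 of 20061 genes above 0 (within 0.01 of a whole number). They cover counting error only and served voom, an alternative. The study's fold rule was applied to group means, as (mean FPKM of the diet + 1) over (mean FPKM of ND + 1), above 1.54 or below 0.65.

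The members and gene lists were chosen with earlier results of these data known. Named from the wider lists were the gene of highest mean FPKM and that of largest sucrose difference in each, any gene with an adjusted p under 0.05, and FTL, ACO1, FBXL5, NCOA4 and HMOX2. Other genes named beside a count of genes were picked after their values were seen. Some marker genes and the rod marker sum are not reported here. Scripts were tested on simulated data. How reads of near-identical gene copies, such as ferritin pseudogenes, were assigned could not be checked.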

Additional observations from a re-analysis of the deposited data

How the results depend on the processing

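No alternative made an iron gene pass the threshold: 0 were called in each comparison by limma with another pseudocount or scaling, without the limit on low values or the mean-variance trend, with a replicate block or without any 1 library, and 0 by voom. The same held with only the libraries compared, run for the comparisons with ND, and with 2 groups of 4 libraries, run for sucrose and fat. With all libraries in, 404 of 406 recomputed differences kept their direction and their side of the threshold (21 of the 406 are TF for sucrose, without a test, and TF for the interaction is likewise a description), and 2 changed sign: SLC40A1 in HSD with a pseudocount of 0.1 (-0.011) and SLC11A2 for sucrose under median-ratio scaling (0.0020). By the study's fold limits a pseudocount of 0.1 gave 2 iron genes in HSD and 2 in HFSD, since HMOX1 joined TF with ratios of 0.627 and 0.552. Leaving out 1 library gave 1 to 2 genes in HFD, 1 to 2 in HSD and 1 to 3 in HFSD. Same-numbered retinas did not deviate together (correlations of -0.165 to 0.0813). No pairing by number was seen, though such correlations cannot exclude one that touches few genes. With the replicate block TFRC for sucrose had an adjusted p of 0.229 by limma with Benjamini-Hochberg adjustment, against 0.202 without it.

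Signs of these differences turned when 1 library was left out, with these lowest and highest log2 values. For HFD against ND, TF ran from -0.43 to 0.85, TFRC from -0.15 to 0.13, CP from -0.60 to 0.98, HMOX1 from -0.22 to 0.70 and SLC11A2 from -0.33 to 0.017. For HSD against ND, TF ran from -1.24 to 0.038, TFRC ran from -0.074 to 0.23, SLC40A1 from -0.32 to 0.33, CP from -0.37 to 0.69, HMOX1 from -0.82 to 0.10, SLC11A2 from -0.18 to 0.0023 and IREB2 from -0.094 to 0.068. For HFSD against ND, CP ran from -0.68 to 0.38, HMOX1 from -0.92 to 0.0013, SLC11A2 from -0.17 to 0.018 and IREB2 from -0.070 to 0.093. For sucrose, SLC40A1 ran from -0.18 to 0.14, CP from -0.49 to 0.30, SLC11A2 from -0.091 to 0.084, FTL from -0.18 to 0.10, FBXL5 from -0.061 to 0.098 and ISCA1 from -0.038 to 0.10. For fat, TF ran from -0.36 to 0.28, CP from -0.46 to 0.33, HMOX1 from -0.16 to 0.30 and SLC11A2 from -0.16 to 0.016. For the interaction, TF ran from -1.14 to 0.14, SLC40A1 from -0.37 to 0.28, CP from -1.30 to 0.28, HMOX1 from -0.80 to 0.12 and SLC11A2 from -0.0016 to 0.35. The cause of these turns was not tested. Without a turn, some sucrose differences moved by over 1.5 times: ALAD was -0.19, PCBP1 -0.10 and KEAP1 -0.091 without HFD replicate 1, ACO1 was -0.050 without ND replicate 2 and -0.23 without ND replicate 1, GLRX5 was -0.78 without HSD replicate 1, and IREB2 was 0.018 without ND replicate 1 and 0.10 without ND replicate 2. TFRC for fat was 0.13 without HSD replicate 2. With 2 retinas a diet, 1 library decides the sign of most of these values, and intervals are wide for TF and CP in spite of many fragments. HMOX1 and HEPH rested on few fragments, and the part of that in their intervals was not tested.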
